A study of Homo sapiens with 16 samples.

Results

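SESN1, SESN2, SESN3, FOXO1, FOXO3, FOXO4, TXNIP and PIK3IP1, 8 of the 60623 genes counted by RNA-Seq in MUTZ-3 cells, were described in each of 16 libraries. They were chosen by gene symbol, and the choice was made with their responses to PARPi and to loss of EVI1 known, so that every value of an inhibitor library against DMSO or of a shEVI1 library against NTC is given here as a description, without a test. MUTZ-3 is a myeloid leukemia line with inv(3), grown in medium that contained GM-CSF and conditioned medium of 5637 cells. In the PARPi experiment, cells received DMSO as vehicle, olaparib at 10 µM or talazoparib at 1 µM for 12, 24 or 48 h. Cells harvested at 0 h gave the untreated library. In the knockdown experiment, cells carried the lentiviral vector pLKO.1 with a commercial non-targeting control (NTC), shEVI1-2531 or shEVI1-2532, were selected with puromycin and were harvested at day 3 or day 6. All groups were of the same line, and each condition had 1 library.

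Sestrins are stress-inducible proteins that hold back mTORC1, the kinase complex that couples amino acids to growth. SESN1 and SESN2 are known targets of p53, SESN2 is also induced by ATF4, and SESN3 is a known target of FOXO factors. FOXO1, FOXO3 and FOXO4 are forkhead transcription factors that AKT phosphorylates and keeps out of the nucleus when growth factors are present. TXNIP is an arrestin-domain protein that binds thioredoxin and restrains glucose uptake, and PIK3IP1 is a transmembrane protein that inhibits PI3K, the kinase upstream of AKT. In blood cells this axis is known for setting the balance between quiescence and growth.

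The bases before the start of the 3 genes with the highest ratios are printed to show what could be searched for regulatory motifs. They are RefSeq sequences of GRCh38.p14, read in the direction of the gene, and all 8 genes were matched by symbol. Capitals mark the FOXO core (GTAAACA) and the CCAAT box (CCAAT), each searched on both strands in the 250 bases before the RefSeq start. Bases that lie inside an annotated gene were left out of the print.
TXNIP, minus strand, chr1:145996601-145996829: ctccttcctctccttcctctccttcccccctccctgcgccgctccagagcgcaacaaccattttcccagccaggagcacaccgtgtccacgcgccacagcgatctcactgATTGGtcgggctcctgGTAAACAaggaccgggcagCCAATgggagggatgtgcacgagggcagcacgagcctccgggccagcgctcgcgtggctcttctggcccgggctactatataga
SESN3, minus strand, chr11:95232542-95232725: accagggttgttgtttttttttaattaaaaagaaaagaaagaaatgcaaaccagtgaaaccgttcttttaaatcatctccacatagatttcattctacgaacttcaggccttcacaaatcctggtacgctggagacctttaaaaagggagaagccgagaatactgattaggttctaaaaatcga
PIK3IP1, minus strand, chr22:31292535-31292784: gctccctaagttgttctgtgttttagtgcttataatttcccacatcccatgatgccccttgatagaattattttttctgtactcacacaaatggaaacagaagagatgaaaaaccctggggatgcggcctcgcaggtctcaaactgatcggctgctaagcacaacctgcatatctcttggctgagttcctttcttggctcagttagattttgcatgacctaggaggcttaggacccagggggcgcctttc
TXNIP was the single member with a match to the FOXO core, which began 124 bases before its start, and 2.98% of 35116 RefSeq promoters of the same length held a match. A CCAAT box on the other strand began 140 bases before the TXNIP start and another on the same strand 105 bases before it. CCAAT boxes were also found in FOXO1 and SESN2, against 32% of all promoters. The E-box (CACGTG) and the ATF4 element (TGATGNAA) matched in none of the 8, against 6.34% and 3.14% of all promoters. The GC box (GGGCGG) matched in SESN1, SESN2, FOXO1 and FOXO3, against 42.6% of all promoters. SESN3, FOXO4 and PIK3IP1 held none of the 5 motifs in these windows. A match describes letters only, and the absence of a match says nothing of a factor.

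In the coordinates of the files, which are those of GRCh38, SESN1 (ENSG00000080546) spans 108986437 to 109094819 on chromosome 6 (minus strand), and FOXO3 (ENSG00000118689) 108559835 to 108684774 on the same chromosome (plus strand). SESN2 (ENSG00000130766) spans 28259518 to 28282491 on chromosome 1 (plus strand), and TXNIP (ENSG00000265972) spans 145992435 to 145996579 there (minus strand). SESN3 (ENSG00000149212) spans 95165513 to 95232541 on chromosome 11 (minus strand), and FOXO1 (ENSG00000150907) 40469953 to 40666641 on chromosome 13 (minus strand). FOXO4 (ENSG00000184481) spans 71095851 to 71103532 on chromosome X (plus strand), and PIK3IP1 (ENSG00000100100) 31281594 to 31292534 on chromosome 22 (minus strand). Whether counting used strand is not given in the sources used here, and the genes that overlap a member held at most 11 counts in any library. FOXO3B, a sequence copy of FOXO3, held 22 to 67 counts, against 1771 to 4917 for FOXO3.

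Total counts per library were 55999673 to 72681943 with PARPi and 95523038 to 120716213 with shRNAs, so that 3 counts, taken as the smallest level a library can show, came to at most 0.0536 CPM. The members held 115 counts (SESN3, untreated) to 175353 counts (TXNIP, shEVI1-2532 at day 6), and all 8 were above the filter on low counts. EVI1, listed as MECOM, had 32.5% and 47.1% of the NTC level with shEVI1-2531 at day 3 and day 6, and 12.7% and 11.6% with shEVI1-2532. With inhibitors it lay at 90.7% and 91.5% of DMSO at 12 h and at 37.9% (olaparib) and 16.3% (talazoparib) at 48 h. Of the 12 monocyte markers, 11 were higher than the control with both inhibitors at 48 h and with shEVI1-2532 at both days. Their summed level lay at 1164 to 1545 CPM without inhibitor, at 1401 to 17100 CPM with inhibitor, at 1177 to 1630 CPM with NTC, at 2633 to 3235 CPM with shEVI1-2531 and at 10230 to 10240 CPM with shEVI1-2532. The 12 proliferation genes summed to 2565 to 3090 CPM without inhibitor, 537 to 2799 CPM with inhibitor, 1723 to 2142 CPM with NTC, 1298 to 1548 CPM with shEVI1-2531 and 800.2 to 899 CPM with shEVI1-2532. Markers of other cell types summed to at most 8.59 CPM in any library, with MS4A1 and KRT5 at 0 throughout. Of 7 markers of immature leukemia cells, PROM1 had 3 to 46 counts, while CD33 and ANPEP had at least 5492 and 39363. CD34 ranged from 3.61 to 644 CPM over the 16 libraries, KIT from 9.45 to 128 CPM and ERG from 0.362 to 38.8 CPM. Of these 7 markers, 2 were higher than the control with talazoparib at 48 h and with shEVI1-2532 at day 6, with median log2 ratios of −1.91 and −2.17. The log2 ratios of their summed level in these libraries were 0.37 and −0.11. Their sum lay at 1258 to 1776 CPM without inhibitor and at 1356 to 1826 CPM with inhibitor. It was 970.9 to 1571 CPM with NTC, 830.7 to 1055 CPM with shEVI1-2531 and 1083 to 1452 CPM with shEVI1-2532. The part of the monocyte, proliferation and immature marker genes in the values of the members was not tested.

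Expressed per kilobase of annotated exon, the only scale here on which genes may be ordered, TXNIP was highest, with a median of 76.5 CPM per kb in the PARPi libraries. SESN1 and SESN2 followed with medians of 27.0 and 22.5 CPM per kb, and their ranges over the 10 libraries (11.2 to 52.2 and 12.4 to 49.7) overlapped. FOXO4 and FOXO3 had medians of 5.42 and 4.80 CPM per kb, also with overlapping ranges. PIK3IP1 had 2.20, FOXO1 0.814 and SESN3 0.426 CPM per kb. In the knockdown libraries SESN3 stood higher in this order, with 0.207 CPM per kb in NTC at day 6 and up to 5.39 CPM per kb in shEVI1-2532 at day 6. FOXO1 was then the lowest member, with a median of 0.719 CPM per kb. Lengths are the union of exons in GENCODE v29, so the order depends on transcripts that these cells may not use.

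With inhibitor, 7 of the 8 members lay above DMSO of the same hour in each of the 6 libraries, TXNIP being the exception. This was the case for 17.7% of the 17218 genes tested, and 19.2% of them, but no member, lay below DMSO in all 6. SESN1, SESN2, SESN3 and PIK3IP1 lay above DMSO beyond counting error in all 6, and FOXO1, FOXO3 and FOXO4 did not. At 48 h, SESN3 and PIK3IP1 were at least 2-fold higher with both compounds, as were 10.9% of all genes. These shares are printed for scale only, since the members were chosen from these values. In bulk RNA, a change in the share of cells of a type and a change in RNA per cell cannot be told apart.

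**Figure D1:**
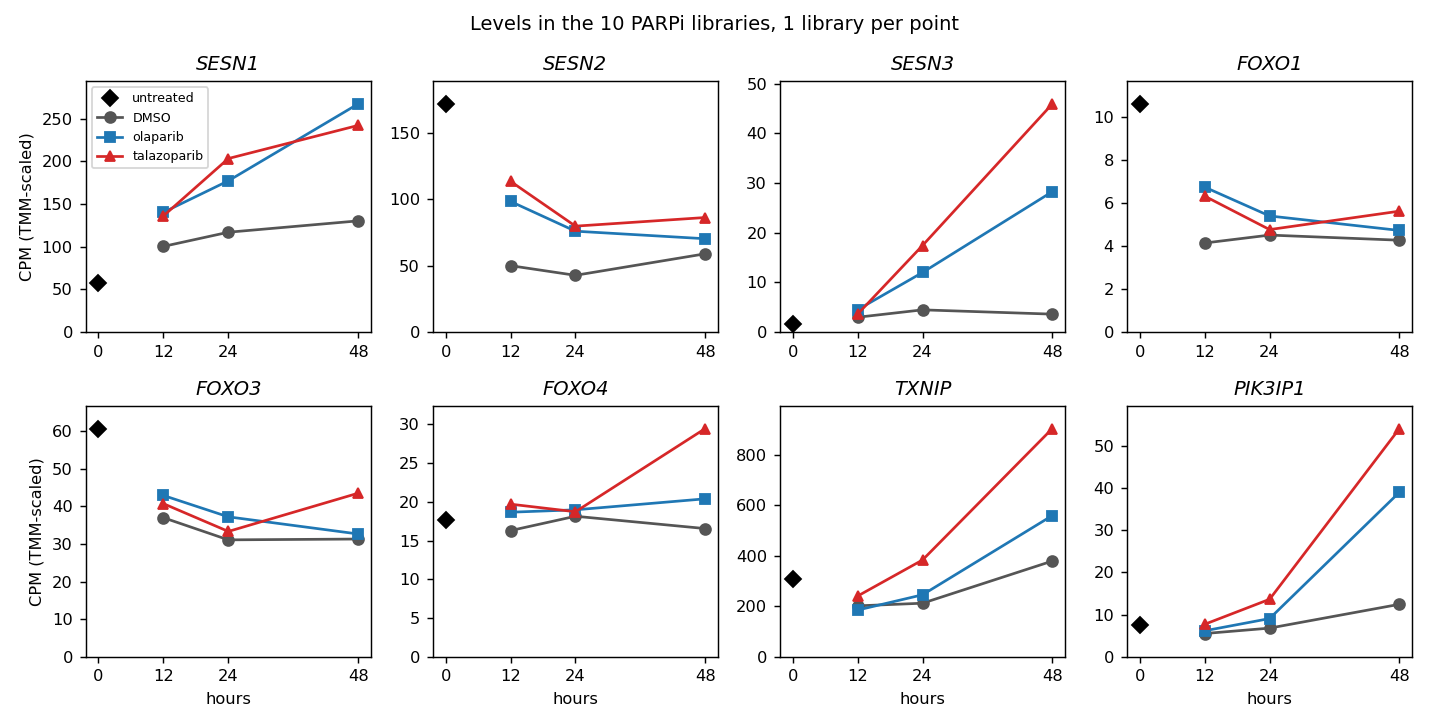
CPM scaled by TMM (y axis, from 0) against hours (x axis) for the 8 genes, 1 library per point, in untreated (diamond), DMSO (circles), olaparib (squares) and talazoparib (triangles) cells. In DMSO, SESN3 lies at 3.00 to 4.49 CPM and PIK3IP1 goes from 5.51 CPM at 12 h to 12.4 CPM at 48 h. With talazoparib at 48 h they reach 46.0 and 54.1 CPM, while SESN2, FOXO1 and FOXO3 are highest in the untreated library.

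SESN1 had 100.4, 117 and 130.3 CPM in DMSO at 12, 24 and 48 h, against 57.2 CPM in untreated cells. Olaparib gave 140.3, 177 and 267 CPM and talazoparib 136, 203 and 242 CPM. All 6 inhibitor libraries lay above all 4 libraries without inhibitor, and the log2 ratios to DMSO of the same hour ran from 0.44 (95% interval for counting error 0.41 to 0.47, talazoparib at 12 h) to 1.04 (1.01 to 1.06, olaparib at 48 h). SESN1 ratios were positive also when libraries were scaled to their totals only.

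SESN2 had 49.98, 42.7 and 58.9 CPM in DMSO. The olaparib libraries held 98.3, 75.9 and 70.2 CPM and the talazoparib libraries 113, 79.7 and 86.2 CPM. The inhibitor libraries were all above the DMSO libraries, but the untreated library, with 172 CPM, was the highest of the 10. In contrast to SESN1 and SESN3, its ratio to DMSO was highest at 12 h, with log2 ratios of 0.98 (0.93 to 1.02) for olaparib and 1.18 (1.14 to 1.22) for talazoparib, and 0.25 (0.21 to 0.30) and 0.55 (0.50 to 0.59) at 48 h.

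SESN3, the sestrin known as a FOXO target, was low without inhibitor, with 1.67 CPM in untreated cells and 3.00, 4.49 and 3.63 CPM in DMSO. With olaparib it had 4.51, 12.0 and 28.3 CPM, and with talazoparib 3.62, 17.4 and 46.0 CPM. At 12 h the talazoparib library did not exceed the highest DMSO library, and from 24 h on the inhibitor libraries lay apart from all controls. The ratio to DMSO at 48 h was 7.79-fold with olaparib, a log2 ratio of 2.96 (2.83 to 3.10), and 12.7-fold with talazoparib, a log2 ratio of 3.66 (3.53 to 3.80). The latter exceeded that of 99.3% of the genes tested.

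FOXO1 had 10.6 CPM in untreated cells and 4.14, 4.50 and 4.27 CPM in DMSO. Olaparib gave 6.73, 5.39 and 4.72 CPM and talazoparib 6.31, 4.76 and 5.61 CPM. The ratios were highest at 12 h, at log2 values of 0.70 (0.55 to 0.85) and 0.61 (0.46 to 0.76), and the counting intervals of talazoparib at 24 h and olaparib at 48 h included 0. FOXO1 rests on 256 to 731 counts per library in this experiment.

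FOXO3 had 60.7 CPM in untreated cells and 37.0, 31.1 and 31.3 CPM in DMSO. The olaparib libraries held 42.9, 37.2 and 32.6 CPM and the talazoparib libraries 40.7, 33.3 and 43.5 CPM. The highest ratio was that of talazoparib at 48 h, a log2 value of 0.47 (0.41 to 0.54), and the inhibitor and DMSO libraries overlapped. The counting interval of olaparib at 48 h, 0.06 (−0.0029 to 0.12), included 0. FOXO4 had 17.7 CPM in untreated cells and 16.3, 18.1 and 16.5 CPM in DMSO. With olaparib it had 18.7, 19.0 and 20.4 CPM, and with talazoparib 19.7, 18.7 and 29.5 CPM. All 6 inhibitor libraries lay above the DMSO libraries, by a log2 ratio of 0.83 (0.75 to 0.91) for talazoparib at 48 h and of at most 0.30 (0.22 to 0.39) elsewhere. At 24 h the FOXO4 ratios were 0.06 (−0.01 to 0.14) with olaparib and 0.05 (−0.03 to 0.12) with talazoparib, and both counting intervals included 0. With scaling to library totals only, FOXO1 and FOXO3 were no longer above DMSO in each of the 6 libraries, and 5 members remained so: SESN1, SESN2, SESN3, FOXO4 and PIK3IP1. That scaling moved the median of all genes tested by −0.19 (olaparib) and −0.28 (talazoparib) at 48 h on the log2 scale.

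TXNIP had 309 CPM in untreated cells and 202, 212 and 379.7 CPM in DMSO. Olaparib gave 185, 246 and 560.2 CPM and talazoparib 241, 384 and 905 CPM. Olaparib at 12 h was the lowest of the 10 libraries, at a log2 ratio of −0.13 (−0.15 to −0.10), and DMSO at 48 h lay above olaparib at 24 h, so that hours and treatment overlap. The log2 ratio at 48 h was 0.56 (0.54 to 0.58) with olaparib and 1.25 (1.24 to 1.27) with talazoparib. ARRDC4, an arrestin-domain relative of TXNIP, had log2 ratios of −0.27, 0.23 and 0.76 with olaparib at 12, 24 and 48 h and of 0.03, 0.84 and 1.70 with talazoparib.

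PIK3IP1 had 7.64 CPM in untreated cells and 5.51, 6.79 and 12.4 CPM in DMSO. The olaparib libraries held 6.16, 9.06 and 39.0 CPM and the talazoparib libraries 7.70, 13.6 and 54.1 CPM. At 48 h both inhibitor libraries lay above every other library, with ratios of 3.13-fold, a log2 value of 1.65 (1.57 to 1.73), and 4.35-fold, a log2 value of 2.12 (2.04 to 2.20). At 12 h the olaparib ratio was 0.16 (0.02 to 0.30) and the library lay below the untreated one.

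Olaparib and talazoparib, both PARP1 inhibitors, were given at doses that differ, so their values stand side by side without a comparison. The median log2 ratio of the 8 members was 0.35 with olaparib and 0.36 with talazoparib at 12 h, 0.34 and 0.83 at 24 h, and 0.43 and 0.86 at 48 h, while the median of all genes tested lay between −0.02 and 0.01.

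**Figure D2:**
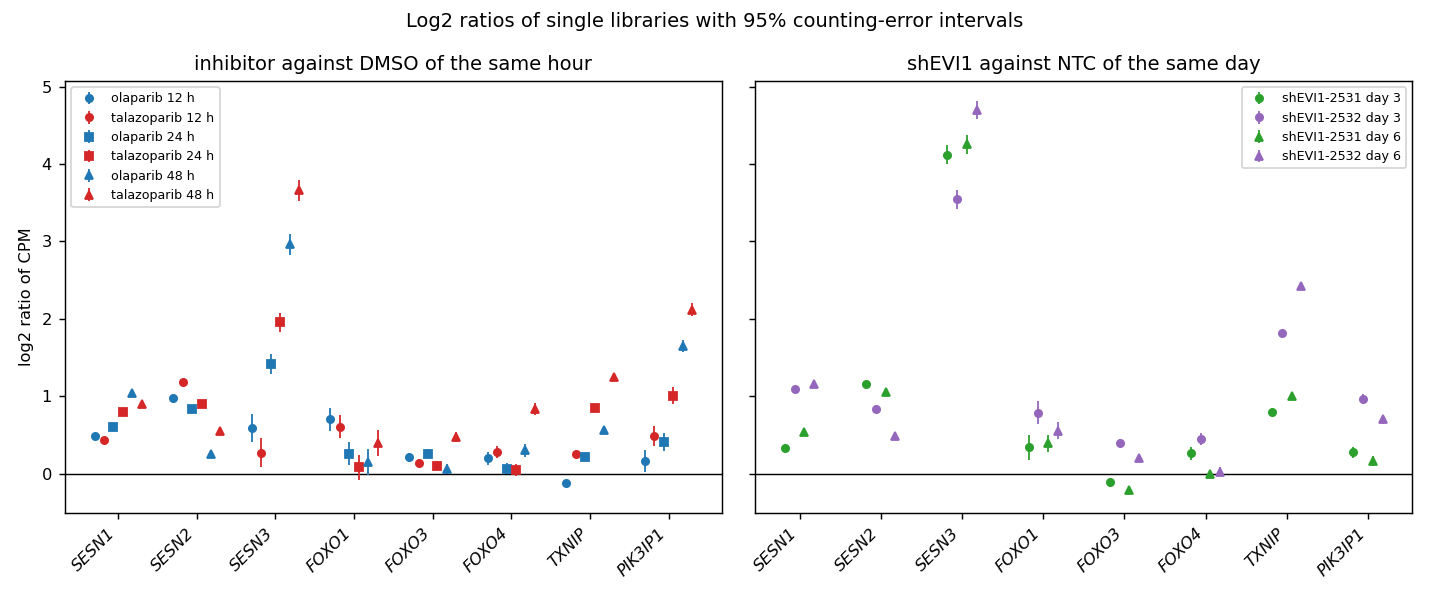
Log2 ratio of CPM (y axis) for each member (x axis) in 6 inhibitor libraries against DMSO of the same hour (left) and in 4 shEVI1 libraries against NTC of the same day (right). Bars are 95% intervals for counting error of single libraries; SESN3 stands apart at 48 h and with both shRNAs, and FOXO3 lies on either side of 0 with the shRNAs.

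With shEVI1, 6 of the 8 members, SESN1, SESN2, SESN3, FOXO1, TXNIP and PIK3IP1, lay above NTC of the same day in each of the 4 libraries. Among the 18606 genes tested, 25% did so, 24.2% lay below NTC in all 4, and no member was among the latter. SESN3 alone was at least 2-fold higher in all 4, as were 2.42% of the genes. SESN1, SESN2, SESN3, FOXO1 and PIK3IP1 lay above their controls in all 10 treated libraries of both experiments, as did 9.46% of the genes tested in both. With scaling to library totals only, which moved the median of all genes by −0.17 to −0.35 in these libraries, SESN1, SESN2 and SESN3 did so in all 10, and PIK3IP1 left the count for the shRNAs.

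**Figure D3:**
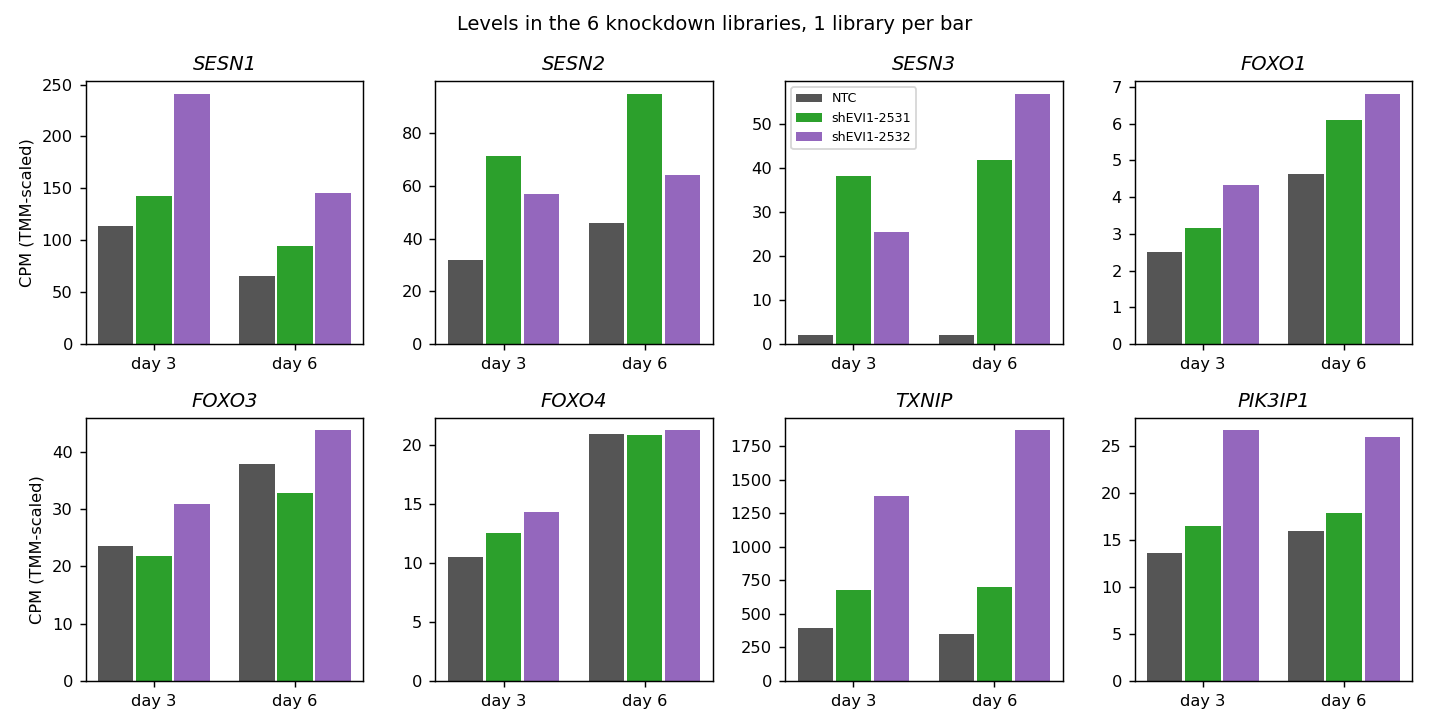
CPM scaled by TMM (y axis, from 0) for the 8 genes at day 3 and day 6 (x axis) with NTC (grey), shEVI1-2531 (green) and shEVI1-2532 (purple), 1 library per bar. SESN3 is close to 0 with NTC and between 25.6 and 57.0 CPM with shEVI1, and TXNIP and SESN1 are highest with shEVI1-2532 at both days.

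SESN3 had 2.19 CPM with NTC at both days. It had 38.2 and 41.8 CPM with shEVI1-2531 at day 3 and day 6, and 25.6 and 57.0 CPM with shEVI1-2532. The ratios were 17.4-fold and 19.1-fold with shEVI1-2531, and 11.7-fold and 26.0-fold with shEVI1-2532, each above that of at least 99.2% of the genes tested. All 4 shEVI1 libraries lay apart from NTC, and the order of the shRNAs differed between the days.

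SESN1 had 114 and 65.2 CPM with NTC at day 3 and day 6, 142 and 94.6 CPM with shEVI1-2531, and 241 and 146 CPM with shEVI1-2532. At each day the order was NTC, shEVI1-2531, shEVI1-2532, and the log2 ratios were 0.33 (0.30 to 0.35) and 0.54 (0.51 to 0.56) for shEVI1-2531 and 1.09 (1.07 to 1.11) and 1.16 (1.14 to 1.19) for shEVI1-2532. SESN2 had 31.9 and 45.9 CPM with NTC, 71.6 and 95.1 CPM with shEVI1-2531, and 57.2 and 64.1 CPM with shEVI1-2532. Its order was the other way round, with shEVI1-2531 highest at both days, at log2 ratios of 1.16 (1.12 to 1.20) and 1.05 (1.02 to 1.08), against 0.84 (0.80 to 0.88) and 0.48 (0.44 to 0.52) for shEVI1-2532.

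FOXO1 had 2.50 and 4.64 CPM with NTC, 3.17 and 6.09 CPM with shEVI1-2531, and 4.32 and 6.82 CPM with shEVI1-2532. Its log2 ratios ran from 0.34 (0.18 to 0.50) to 0.79 (0.64 to 0.94). FOXO3 had 23.6 and 37.9 CPM with NTC, 21.8 and 32.8 CPM with shEVI1-2531, and 30.9 and 43.8 CPM with shEVI1-2532. It was the member whose direction differed between the shRNAs, with log2 ratios of −0.11 (−0.17 to −0.06) and −0.21 (−0.25 to −0.17) for shEVI1-2531 and 0.39 (0.34 to 0.44) and 0.21 (0.17 to 0.25) for shEVI1-2532, and the last of these was −0.14 when libraries were scaled to their totals only. FOXO4 had 10.5 and 20.9 CPM with NTC, 12.5 and 20.8 CPM with shEVI1-2531, and 14.3 and 21.2 CPM with shEVI1-2532. The FOXO4 levels at day 6 were within counting error of NTC.

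TXNIP had 393 and 349 CPM with NTC, 680.5 and 699 CPM with shEVI1-2531, and 1379 and 1868 CPM with shEVI1-2532. The 3 groups did not overlap, and the log2 ratios were 0.79 (0.78 to 0.80) and 1.00 (0.99 to 1.01) for shEVI1-2531 and 1.81 (1.80 to 1.82) and 2.42 (2.41 to 2.43) for shEVI1-2532. PIK3IP1 had 13.6 and 15.9 CPM with NTC, 16.5 and 17.9 CPM with shEVI1-2531, and 26.6 and 25.9 CPM with shEVI1-2532. The shEVI1-2532 libraries lay above the other 4, at log2 ratios of 0.97 (0.90 to 1.03) and 0.70 (0.64 to 0.76), and the ratio of shEVI1-2531 at day 6, 0.17 (0.11 to 0.23), was −0.0046 with scaling to totals only.

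The hours were compared within each treatment. The average over DMSO, olaparib and talazoparib includes the inhibitor libraries, from whose values the members were chosen, so it is given for the members as a description without a p-value. In that average PIK3IP1 had a log2 fold change of 2.25 (SE 0.30) from 12 h to 48 h, SESN3 of 2.26 (SE 0.53), TXNIP of 1.46 (SE 0.18) and SESN1 of 0.71 (SE 0.13), and the other members lay between −0.22 and 0.25. No member is called from this fit, and among all genes tested edgeR's test called 22.1% higher and 21.3% lower.

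In DMSO alone, the difference between the hours was smaller for each of PIK3IP1, SESN3, TXNIP and SESN1, with single libraries and no test. PIK3IP1 had a log2 ratio of 1.17 between DMSO at 48 h and at 12 h, against 2.66 with olaparib and 2.81 with talazoparib. TXNIP had 0.91 in DMSO, against 1.60 and 1.91. SESN3 differed most between the treatments, with 0.27 in DMSO against 2.65 and 3.66, and SESN1 had 0.38 against 0.93 and 0.83.

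Between day 3 and day 6 of the knockdown experiment the pattern was another. The average over NTC and both shRNAs includes shEVI1 libraries, from which members were also chosen. It is therefore given for the members as a description without a p-value, and the values of NTC alone stand beside it. In the average, SESN1 fell by 0.71 on the log2 scale (SE 0.10). FOXO1 rose by 0.83 (SE 0.17), FOXO4 by 0.77 (SE 0.14), FOXO3 by 0.59 (SE 0.13) and SESN2 by 0.37 (SE 0.12). SESN3, TXNIP and PIK3IP1 had log2 fold changes of 0.44, 0.10 and 0.10. No member is called from this fit, and among all genes tested edgeR's test called 11.9% higher and 11.9% lower. In NTC alone the log2 ratios of day 6 over day 3 were −0.80 for SESN1, 0.89 for FOXO1, 1.00 for FOXO4, 0.69 for FOXO3 and 0.52 for SESN2, each at least as large as the average. All 3 FOXO genes were higher at day 6 with each of NTC, shEVI1-2531 and shEVI1-2532. Over 10 alternatives of the fit, the average of SESN2 ran from 0.27 to 0.47 and that of SESN3 from 0.07 to 0.64.

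**Figure D4:**
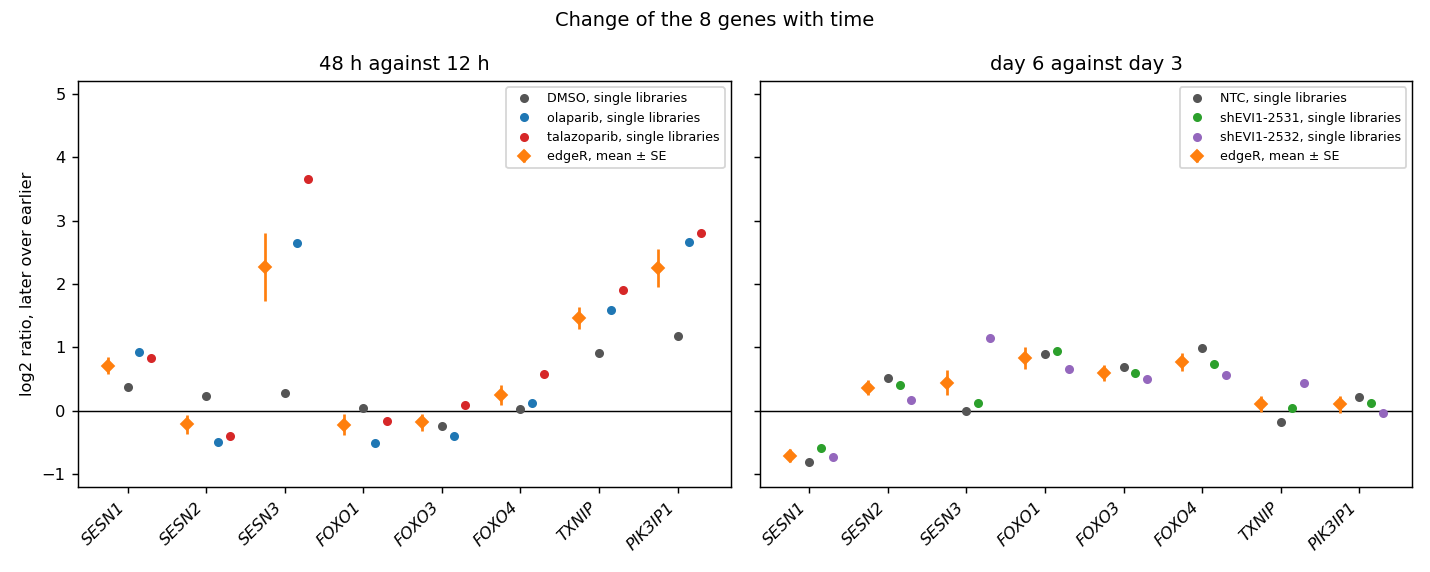
Log2 ratio of the later over the earlier time (y axis) for each member (x axis), 48 h against 12 h (left) and day 6 against day 3 (right). Diamonds are edgeR's estimates ± SE over all treatments, inhibitor and shEVI1 libraries included, and circles are ratios of single libraries within a treatment; the 3 FOXO genes lie above 0 on the right in every treatment, while SESN1 lies below 0 there.

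The untreated library was compared with DMSO without a replicate and without a test. From untreated to DMSO at 12 h, SESN2 dropped by 1.78, FOXO1 by 1.36, FOXO3 by 0.71, TXNIP by 0.61 and PIK3IP1 by 0.47 on the log2 scale, while SESN1 and SESN3 were 0.81 and 0.84 higher in DMSO. The effect of the vehicle, of fresh medium and of culture time cannot be told apart in this comparison.

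To place the members in their pathways, 6 lists with 161 genes in all and no member were tested in the same fits. The lists were also chosen with earlier results of these data known, so their p-values and counts describe these libraries only. The counts also depend on how even a change was over the hours or days, and not on its size alone. With the mean of both inhibitors, 23 of 148 list genes tested were higher and 2 lower, against 3.16% and 1.01% of all genes. Of the p53 targets, 19 of 24 were higher and the median log2 fold change was 0.78, against −0.01 for all genes tested. GDF15, a stress-induced cytokine, rose by 4.15 (SE 0.25, adjusted p = 0.0021 in edgeR's test) and CDKN1A, the cell cycle inhibitor p21, by 1.87 (SE 0.23, adjusted p = 0.0131). Of the 30 FOXO targets tested, 3 were higher, namely CDKN1A, GADD45A and BBC3, of which CDKN1A and BBC3 are also on the p53 list. The p53 list is not complete, so GADD45A is not shown to be a target of FOXO factors alone. The list's median was 0.44, and GADD45A, a growth arrest gene, had a log2 fold change of 1.04 (SE 0.13, adjusted p = 0.0142 in edgeR's test).

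In the mTORC1 nutrient sensing list, 2 of 36 genes passed, DEPTOR, an inhibitor subunit of mTOR complexes, at −0.64 (SE 0.13, adjusted p = 0.0404 in edgeR's test) and SEH1L, a GATOR2 subunit, at −0.53 (SE 0.11, adjusted p = 0.0471). None of 27 PI3K and AKT genes passed in edgeR's test, where 7 were higher and 1 lower at an unadjusted p under 0.05, and 6 were higher in DESeq2's Wald test. In the thioredoxin and arrestin-domain list, SLC2A3, a glucose transporter, passed at 0.80 (SE 0.17, adjusted p = 0.0461 in edgeR's test), the only one of 21. Of 15 ATF4 targets, CEBPB and PPP1R15A were higher, at 0.92 (SE 0.19) and 0.69 (SE 0.13), and the list's median was −0.03. PHGDH, an enzyme of serine synthesis, and ASNS, asparagine synthetase, lay below DMSO in every inhibitor library. They averaged −2.59 (SE 0.91) and −1.80 (SE 0.67), with lowest single-library log2 ratios of −6.36 and −4.63. Neither was past the threshold (adjusted p = 0.091 and 0.101 in edgeR's test), and ASNS had a mean of 1.09 CPM in DMSO. At an unadjusted p under 0.05, 3 ATF4 targets were higher and 5 lower, and DESeq2's Wald test called 3 higher and 4 lower.

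The number of list genes called higher with inhibitors depended on single libraries. It was 45 without DMSO at 12 h and 42 without talazoparib at 12 h, but 8 without olaparib at 12 h, 4 without DMSO at 24 h, 3 without olaparib at 48 h, and 2 without olaparib or talazoparib at 24 h. The count of 2 lower was 14 without DMSO at 12 h, 7 without talazoparib at 12 h and 1 without DMSO at 48 h. It was 0 in edgeR's test without DMSO or talazoparib at 24 h or without olaparib at 12, 24 or 48 h, with 10 to 14 lower at an unadjusted p under 0.05. The p53 count of 19 was 8 without olaparib at 12 h, 4 without DMSO at 24 h, 3 without olaparib at 48 h, and 2 without olaparib or talazoparib at 24 h. The FOXO target count of 3 was no firmer, since 16 were higher and 1 lower at an unadjusted p under 0.05, and DESeq2 called 11 higher. That count was 14 without DMSO at 12 h, 11 without talazoparib at 12 h, 5 without DMSO at 48 h, 1 without olaparib at 12 h, and 0 in edgeR's test without DMSO, olaparib or talazoparib at 24 h or without olaparib at 48 h.

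With shEVI1-2532, 68 of 149 list genes were higher and 20 lower, against 21.2% and 19.9% of all genes, and with shEVI1-2531, 38 were higher and 11 lower, against 9.49% and 7.9%. Without shEVI1-2531 at day 3, the latter count was 5, and with both shRNAs as 1 group 9 were higher and 0 lower in edgeR's test (13 lower at an unadjusted p under 0.05). Of 31 FOXO targets, 17 were higher and 5 lower with shEVI1-2532, and 9 and 3 with shEVI1-2531. With shEVI1-2532, KLF4, a zinc finger factor, rose by 3.37 (SE 0.35, adjusted p = 1.58e-05 in edgeR's test) and FBXO32, a ubiquitin ligase subunit, by 2.52 (SE 0.23, adjusted p = 5.53e-06). Their means with NTC were 0.331 and 1.36 CPM. S1PR1, a sphingolipid receptor, had a log2 fold change of −1.44 (SE 0.24) with shEVI1-2532 and of 1.36 (SE 0.23) with shEVI1-2531, both past the threshold in edgeR's test.

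Of the 24 p53 targets, 16 were higher with shEVI1-2532 and 15 with shEVI1-2531, and none was lower in edgeR's test, where 1 gene in each comparison lay lower at an unadjusted p under 0.05, nor in DESeq2. ZMAT3, an RNA-binding protein, rose by 3.12 (SE 0.20, adjusted p = 6.05e-07 in edgeR's test) and TP53INP1 by 2.67 (SE 0.17, adjusted p = 5.05e-07) with shEVI1-2532. The ATF4 targets went mostly the other way, with 8 of 15 lower with shEVI1-2532 and 5 lower with shEVI1-2531. PHGDH fell by 5.55 (SE 0.22, adjusted p = 4.56e-08 in edgeR's test) and ASNS by 2.05 (SE 0.38, adjusted p = 0.00103) with shEVI1-2532, while CEBPB and CHAC1 rose by 1.62 (SE 0.15) and 1.64 (SE 0.56). CHAC1 had a mean of 0.136 CPM with NTC, and its log2 fold change with shEVI1-2531 was −0.46, not past the threshold.

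In the PI3K and AKT list, 12 of 27 genes were higher and 1 lower with shEVI1-2532, and 6 and 1 with shEVI1-2531. SGK1, a kinase related to AKT, rose by 2.36 (SE 0.20, adjusted p = 2.94e-06 in edgeR's test) and PIK3R3, a regulatory subunit of PI3K, by 1.77 (SE 0.17, adjusted p = 9.54e-06), and GAB1, an adaptor, fell by 0.62 (SE 0.21, adjusted p = 0.0294). In the mTORC1 list, 13 of 36 were higher and 5 lower with shEVI1-2532, and 4 and 2 with shEVI1-2531, where the shares of all genes were 21.2% and 19.9%, and 9.49% and 7.9%. The 13 became 7 without NTC at day 3 or at day 6, 8 without shEVI1-2532 at day 3 and 6 without shEVI1-2532 at day 6, and the 4 became 1 without NTC or shEVI1-2531 at day 3. With shEVI1-2532, RRAGD, a Rag GTPase, rose by 2.75 (SE 0.26, adjusted p = 7.02e-06 in edgeR's test) and BMT2, a nutrient sensor also called SAMTOR, by 1.19 (SE 0.23, adjusted p = 0.0017). Their means with NTC were 0.84 and 6.03 CPM. In the same test DEPTOR fell by 1.96 (SE 0.25, adjusted p = 6.24e-05) and MTOR itself by 1.63 (SE 0.16, adjusted p = 8.06e-06). The log2 fold changes with shEVI1-2531 were 0.93 for RRAGD, −0.575 for BMT2, −0.54 for DEPTOR and −0.15 for MTOR, and of these genes only RRAGD was past the threshold there.

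Of 21 thioredoxin and arrestin-domain genes, 10 were higher and 1 lower with shEVI1-2532, and 5 and 1 with shEVI1-2531. ARRDC4 rose by 1.99 (SE 0.18, adjusted p = 6.16e-06 in edgeR's test) and ARRDC5 by 2.16 (SE 0.43, adjusted p = 0.00187), and PRDX1, a peroxiredoxin, fell by 0.88 (SE 0.14, adjusted p = 0.000314) with shEVI1-2532. ARRDC5 had a mean of 0.141 CPM with NTC. ARRDC4 had single-library log2 ratios of −0.32 and 0.52 with shEVI1-2531, where TXNIP had 0.79 and 1.00.

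**Figure D5:**
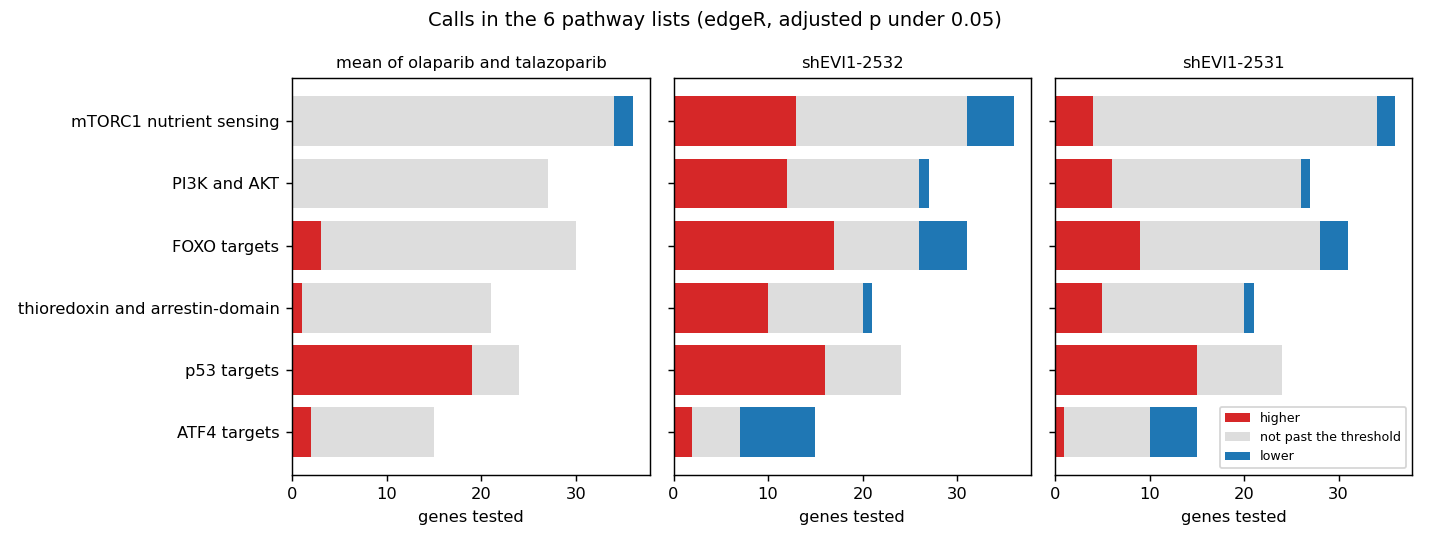
Number of genes tested in each of 6 pathway lists (y axis; x axis, genes) that were higher (red), lower (blue) or not past the threshold (grey) in edgeR's test for the mean of both inhibitors, shEVI1-2532 and shEVI1-2531. With inhibitors, 19 of the 23 list genes called higher are p53 targets; with shEVI1-2532, 16 of 68 are, and 20 list genes are lower.

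Distance between genes was measured as the root mean square difference of log2 CPM, centred within each experiment, over the 16 libraries, among 12031 genes. It is not scaled to the size of change, so genes that vary little lie near one another whatever their pattern. The root mean square of a member around its own means was 0.31 for FOXO3 and FOXO4, 0.43 for FOXO1 and 0.53 for SESN2. It was 0.61 for SESN1, 0.77 for TXNIP, 0.88 for PIK3IP1 and 1.69 for SESN3. Within the 8 members, FOXO1 and FOXO3 were nearest to each other at 0.20, followed by FOXO3 and FOXO4 at 0.28, and SESN2 lay at 0.33 from FOXO1. TXNIP and PIK3IP1 lay at 0.49, and SESN3 lay at least 1.19 from every other member. The 3 sestrins were not near one another, at 0.86 for SESN1 and SESN2, 1.30 for SESN1 and SESN3 and 1.64 for SESN2 and SESN3.

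Over all genes, those nearest to SESN3 were FGL2 (0.53), LILRA5 (0.55) and CD1D (0.55), where the median distance of all genes was 1.72. Nearest to TXNIP were LILRA2 (0.21), NTNG2 (0.22) and FGGY (0.25), and nearest to PIK3IP1 were HLA-B (0.24), ABHD11-AS1 (0.25) and FGD2 (0.25). PSTPIP2 (0.19), BLOC1S2 (0.22) and CXorf21 (0.22) were nearest to SESN1, and TRIB1 (0.22), RAB11FIP4 (0.26) and ADGRE5 (0.29) to SESN2. FOXO1 was nearest to ZNF316 (0.15), MEF2D (0.16) and MAP3K9 (0.17), FOXO3 to FMNL1, CYTH3 (both 0.11) and EP300 (0.12), and FOXO4 to MAP3K3, TSC22D4 (both 0.12) and EVI5L (0.13). The libraries share controls and cell line, so these distances describe the 16 libraries and carry no test.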

How the data were processed

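RNA of MUTZ-3 cells was prepared with a stranded mRNA kit and sequenced as paired reads. The authors deposited raw counts per gene, and the submitters' processing notes name STAR, Picard and featureCounts with hg38/GRCh38. The authors also deposited TPM, which were found to scale the counts by the full gene length with introns and were used only for this check. The strand setting of the counting is not given in the sources used here. The files of shEVI1-2531 carry another number in their names, and the labels were followed.

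Genes with 10 counts in 3 of 9 PARPi libraries or 2 of 6 knockdown libraries were kept. Counts were scaled by TMM and tested with edgeR 4.0.16 (quasi-likelihood) in R 4.3.3, with hour and treatment, or day and shRNA, as factors, which left 4 and 2 residual degrees of freedom. The untreated library entered no fit. P-values were adjusted after Benjamini-Hochberg over all genes, with a threshold of 0.05. With 1 library per condition, hours or days stand in for replicates, and p-values measure only the spread between these libraries. The fits held 1 effect per treatment for all hours or days. A response that grew with time therefore entered the spread, and such a gene was called less readily than one with an even response. Ratios of single libraries added 0.5 to each count, and their 95% intervals cover counting error only. The members and lists were chosen with earlier results of these data known. Named were all members, MECOM, from each list the 2 genes with the largest change in each direction among those past the threshold and moving 1 way in every pair of libraries, for the mean of both inhibitors and for shEVI1-2532, and the 3 genes nearest to each member with a mean CPM of at least 1. A gene that this rule names is not reported here. Alternatives were DESeq2 1.42.0, other scalings and filters, a threshold of 0.01, libraries or hours left out, both shRNAs as 1 group and the mean of all controls. The edgeR fits for the mean of both inhibitors and for shEVI1-2532 were tested on simulated counts. These had no effect of hour or day, a common dispersion and changes that were constant over time. Responses that change with time were not covered by that test. Python 3.11.15 with matplotlib 3.10.9 drew the figures.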

Additional observations from a re-analysis of the deposited data

Results flagged for a closer look

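FOXO3 had log2 ratios of opposite sign with the 2 shRNAs. Its log2 ratio to NTC of the same day was −0.11 at day 3 and −0.21 at day 6 with shEVI1-2531, and 0.39 at day 3 and 0.21 at day 6 with shEVI1-2532, each beyond counting error. The directions at day 6 depend on the processing: with scaling to library totals only, the value of shEVI1-2532 was −0.14, and with the mean of all controls that of shEVI1-2531 was 0.13. The difference between the shRNAs was not tested, and both shRNAs share the same NTC libraries.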

How the results depend on the processing

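The counts of list genes with inhibitors were the least stable. Against 23 higher and 2 lower, DESeq2 and the fit without a filter on low counts each gave 43 and 12. The fit without the 12 h libraries gave 41 and 10, and that without the 24 h libraries 0 and 0 (31 and 7 at an unadjusted p under 0.05). Without the 48 h libraries 5 were lower, with 10 counts required in every library 1 was lower, and a threshold of 0.01 gave 3 and 0. Leaving out 1 library gave 2 to 45 higher and 0 to 14 lower. With shEVI1-2532 that range was 47 to 68 higher and 15 to 27 lower, and with shEVI1-2531 26 to 42 higher and 5 to 14 lower, the 5 without shEVI1-2531 at day 3. Both shRNAs as 1 group gave 9 higher and 0 lower (13 lower at an unadjusted p under 0.05), and the threshold of 0.01 gave 6 lower for shEVI1-2531. S1PR1 turned to 0.55 with both shRNAs as 1 group, a fit that averages the shRNAs, whose values for S1PR1 have opposite signs. Over the alternatives, the average log2 fold change from 12 h to 48 h ran from 1.70 to 2.92 for SESN3 and from 2.04 to 2.67 for PIK3IP1. It ran from 1.29 to 1.68 for TXNIP and from 0.60 to 0.84 for SESN1.

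With the mean of all controls in place of the control of the same time, signs turned for SESN3 at 12 h with talazoparib (−0.0125), FOXO1 with shEVI1-2531 at day 3 (−0.10), FOXO3 with shEVI1-2531 at day 6 (0.13), FOXO4 at day 3 (−0.24 and −0.0499 with shEVI1-2531 and shEVI1-2532), TXNIP at 12 h with talazoparib (−0.0739) and at 24 h with olaparib (−0.0442), and PIK3IP1 at 12 h (−0.33 with olaparib and −0.0096 with talazoparib). With scaling to totals only they turned for FOXO3 with shEVI1-2532 at day 6 (−0.14) and PIK3IP1 with shEVI1-2531 at day 6 (−0.0046). Scaling to totals moved the median of all genes tested by −0.35 with shEVI1-2532 at day 6 and by −0.17 with shEVI1-2531 at day 6. The mean of all controls takes in controls of other hours or of the other day, whose levels differ. FOXO4, for example, had 10.5 and 20.9 CPM with NTC at day 3 and day 6. Why the controls differ was not tested. Hour or day was a factor in every fit, and the labels give no replicate numbers for a further block.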
